A study of Acipenser sturio with 24 samples.

Results

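The RNAs described here were present in sturgeon embryos from the egg through mid neurula and were low in the late tailbud. They are 120 assembled components out of 275906 in the deposited table. A component was a member when its mean deposited value over stages 0 to 11 (the early mean) was at least 10, its mean at stages 15 and 16 was at least 0.5 of that, and its mean at stages 29 to 36 was at most 0.25 of it. The early level alone was reached by 4357 components, of which the members are 2.75%. Of the 690 that also stood at 0.25 or less in the late tailbud, 570 were already below 0.5 at stages 15 and 16 and 120 were not. The size of the set depends on scaling: the same rule gives 297 components with median-of-ratios scaling and 275 with column totals. The members' levels at stages 0 to 11, 15, 16 and 29 to 36 chose them, so their values there are a description and carry no test. Levels at stages 12 to 13.5 and 18 to 26 were not read by the rule.

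Whole embryos of the Bester hybrid, a cross of beluga and sterlet sturgeon, were raised in dilute saline and sequenced at 24 Nieuwkoop-Faber (NF) stages, with 1 library per stage. The organism field of the labels names another sturgeon, Acipenser sturio. NF stages come from a staging table of the frog Xenopus. No treatment or mutant was compared, and the groups are stages: egg to mid gastrula (0 to 11, 7 libraries), late gastrula-early neurula (12 to 13.5, 4 libraries), mid neurula (15 and 16), late neurula (18 to 20, 3 libraries), early tailbud (22 to 26, 4 libraries) and late tailbud (29 to 36, 4 libraries). Libraries of neighbouring stages stand in for replicates, so every SD and p-value below includes development inside a window, and the number of embryos or clutches behind each library is not stated. Gene names are not paired with components in the files, so members are described by identifier and value, and no function is given.

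An egg is loaded with RNA that its mother's oocyte made, and the embryo depends on this store until its own genome becomes active. In frog and zebrafish, much of the store is then degraded in waves, some driven by maternal factors and some by products of the embryo's own transcription, with shortening of the poly(A) tail as a common early step. RNAs that outlast the first waves are still found when the neural tube forms. In the tailbud the trunk and tail extend and organs begin to form. In RNA of whole embryos, lasting maternal molecules and new transcripts of the same gene cannot be told apart, and neither can fewer cells that hold an RNA and less of it per cell.

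Summed values per library ran between 342953 and 679612. Read depth is unknown, so a member listed at or near 0 may lie below detection. Libraries of stages 0, 13, 16, 19, 24, 29 and 36 stood apart from the other 17 in their residuals about a smooth stage curve over 898 abundant components, along a first principal component that held 38.1% of the residual variance. The labels name no batch that matches these 7. Some results below are also given without them, and the others hold all libraries. Under the median-of-ratios scaling used for the tests, the factors of stages 15 and 16 were 0.632 and 0.701, low beside 1.13 to 1.33 at stages 0 to 11. The factor of stage 12.5 was 0.688, so levels at stages 12.5, 15 and 16 relative to the egg depend on whether values are scaled in this way.

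The members spanned a wide range of early levels above the mean of 10 that the rule required. Their early means ran from 10.1 to 355.63 with a median of 30.05, against a median of 22.68 in the 570 components that were below 0.5 by mid neurula and 20.73 in all 4357. An early mean of at least 100 was reached by 12 of the 120 members, 36 of the 570 and 186 of the 4357. Among the 7 earliest libraries the median coefficient of variation of a member was 17.2%, and it was below 25% in 92 of 120. Its highest value, 163%, belonged to a member that stood at 128 in the egg and 11.5 at stage 4. That member was also high in other libraries that stand apart, at 98.8 at stage 13 and 53.9 at stage 16. At stages 12.5, 13.5 and 15 it stood at 8.06, 11.9 and 8.93. Of each library's summed value, the members took 1.52% in the egg and 1.38% at stage 11. Their share was 0.986% and 0.990% in the mid neurula libraries, 0.522% to 0.559% in late neurula, 0.240% to 0.403% in the early tailbud and 0.126% to 0.146% in the late tailbud. The 570 components below 0.5 by mid neurula took 5.71% in the egg, 1.61% and 1.20% in mid neurula and 0.716% to 0.760% in late neurula. Between mid and late neurula both shares were lower in every late neurula library.

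**Figure D1:**
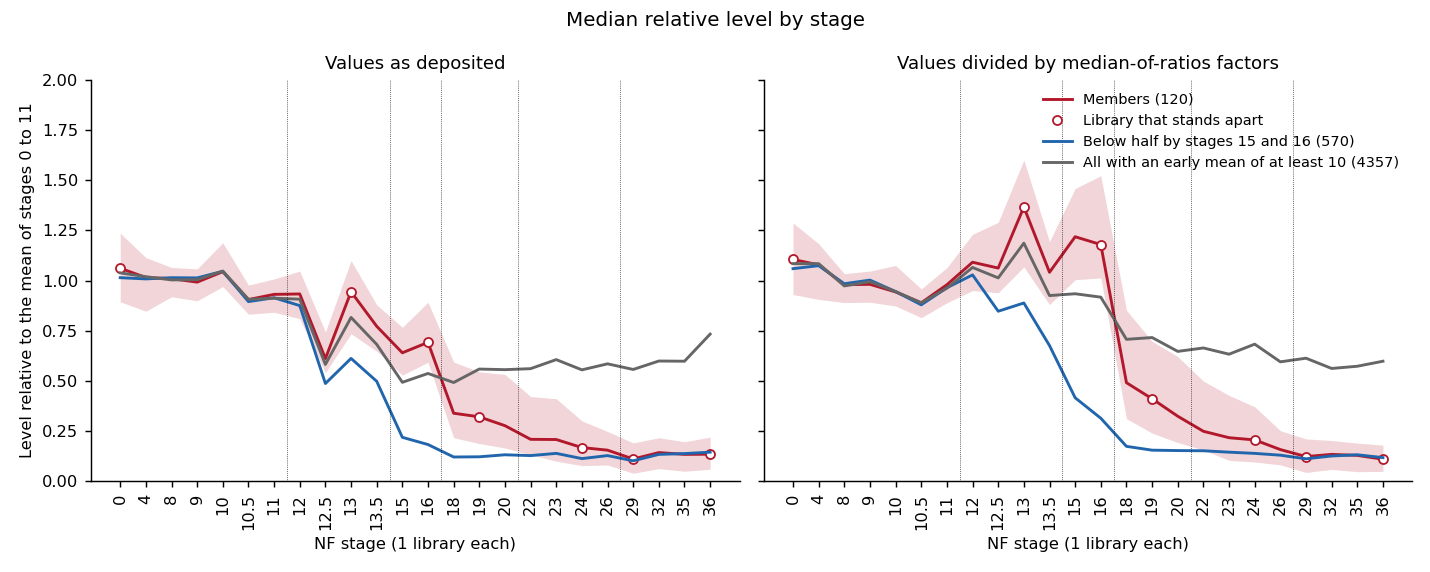
Median level of 3 sets of components at each NF stage, relative to each component's mean over stages 0 to 11, as deposited (left) and after median-of-ratios scaling (right). The band is the quartile range of the 120 members, open circles mark the libraries that stand apart, and dotted lines separate the stage windows. As deposited the member median was 0.692 at stage 16 and 0.339 at stage 18.

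Most members passed below 0.5 of their early mean for good before the tailbud, and fewer had passed below 0.25 of it by then. The median member stood at 0.64 and 0.692 of its early mean in the mid neurula libraries, and at 0.339, 0.321 and 0.277 in those of late neurula. Early tailbud medians were 0.209, 0.208, 0.168 and 0.155, and late tailbud medians lay between 0.111 and 0.143. A working name that keeps these RNAs until a decline in the tailbud therefore does not hold for most of them at the 0.5 level. At the 0.25 level the rule itself fixed a late tailbud mean at or below the mark, so a crossing by then says nothing for the name. The set is called here by its rule: kept to mid neurula and low in the late tailbud. For each member the first stage was taken from which its level stayed below 0.5 of the early mean. For 61 of 120 this was stage 18, and 83 (69.2%) had been lost in this sense by stage 20. Stages 22, 23, 24, 26 and 29 added 8, 2, 14, 5 and 8 members. The rule holds the mean of stages 15 and 16 up, which favours a lower value in the next library, so the peak at stage 18 is a description and carries no test.

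Scaling did not move the peak. With median-of-ratios scaling 51 members were lost from stage 18 and 77 by stage 20, and with column totals 64 and 94. Without the libraries that stand apart 84 members were lost before the tailbud. Of these, 15 were below 0.5 for good already by stage 15, against 0 by that stage with all libraries. At the 0.25 level the timing was later: 37 members (30.8%) had passed it for good by stage 20 and 66 by stage 26. These counts also depend on the late tailbud libraries, which the rule read, since a later rise to 0.25 or above undoes an earlier crossing. For 19 members no such stage was found, because they were not below 0.25 in the last library. At stage 26 itself the upper quartile of the members' levels was 0.248, so more were below 0.25 there than had passed it for good.

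**Figure D2:**
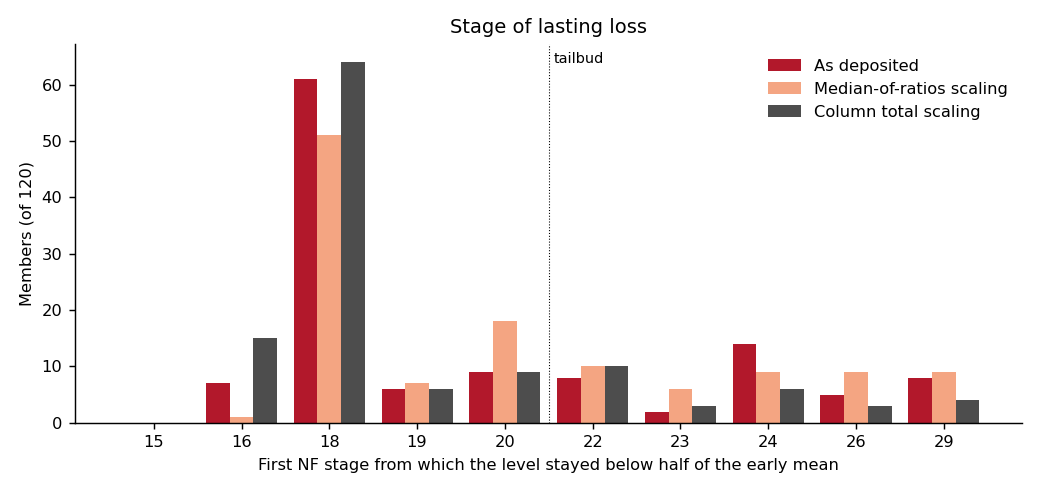
Number of members (of 120) by the first NF stage from which their level stayed below 0.5 of their early mean, under 3 scalings. The bar at stage 18 is the highest under each, with 61 members as deposited, 51 with median-of-ratios scaling and 64 with column totals.

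Levels before the drop depend on the scaling. As deposited, the member medians of stages 12, 12.5, 13 and 13.5 were 0.933, 0.611, 0.944 and 0.772. The low value at stage 12.5 was shared by all components with an early mean of at least 10, whose median there was 0.582, so the members shared it with that background. After median-of-ratios scaling the member medians of stages 12.5, 13, 15 and 16 were 1.06, 1.37, 1.22 and 1.18. With column totals the medians of stages 15 and 16 were 0.697 and 0.658. The direction of the members' change between the early stages and mid neurula thus flips with median-of-ratios scaling and not with column totals, while the drop at stage 18 was there under all 3 (0.491 with median-of-ratios scaling and 0.278 with column totals at stage 18). The 4357 background components had a median of 0.493 at stage 15 and 0.492 at stage 18 as deposited, and of 0.934 and 0.707 after median-of-ratios scaling, which moves all components of a library alike.

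At mid neurula, 81 members were at or above 0.5 of their early mean in both libraries that the rule averaged. For 16 this held at stage 15 only and for 23 at stage 16 only, and stage 16 is among the libraries that stand apart. In 24 members stage 16 was over 1.5 times stage 15, and in 14 it was under stage 15 divided by 1.5. Beside the thresholds, the nearest members had early means of 10.1 and the nearest components outside 9.77 and 9.60. At stages 15 and 16 the closest on the inside stood at 0.503 and 0.504 of the early mean and the closest on the outside at 0.499 and 0.499. In the late tailbud they stood at 0.2497 and 0.2485 inside and at 0.2507 and 0.2523 outside.

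Late neurula libraries were compared with late gastrula-early neurula libraries to ask how far the members had fallen by late neurula, using stages that did not choose them. The median log2 change of the members was -1.40, against -0.49 for all 4357 components with an early mean of at least 10 and 0.56 for all 48818 components tested. In the fit, 83 of 120 members were lower and 4 were higher (limma, adjusted p threshold 0.05). Among all tested components 10.4% were lower and 41.1% higher, and among the 4357 the shares were 44.1% and 15.9%. Of the 570 components below 0.5 at mid neurula as deposited, 520 were lower, with a median log2 change of -2.06. After the scaling used in the test, 62.1% of these 570 were below 0.5 at stage 15 and 79.1% at stage 16, so the 2 sets are less distinct under it. Levels of 85 members were lower in all 3 late neurula libraries than in all 4 earlier ones and those of 4 were higher, which held for 10.7% and 42.7% of all tested components. Every member passed the filter on low values through its early libraries, which this test did not use. The set is one that the rule holds high at stages 15 and 16 and low from stage 29, so a fall somewhere between was fixed. Part of the gap to components not chosen by the rule is therefore built in. The test bears on how much of the fall had occurred by stages 18 to 20.

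The largest falls of members in this comparison left little RNA by stage 18. comp263726_c1 stood at 118, 97.4, 140 and 125 at stages 12 to 13.5, at 115 at stage 15 and 62.8 at stage 16, and at 16.2, 7.51 and 10.2 at stages 18, 19 and 20. Its late neurula values all lay below its earlier ones, and it had been higher at stage 13 than in any egg or cleavage library. It averaged 11.3 ± 4.43 (SD, 3 libraries) in late neurula and 120 ± 17.6 (SD, 4 libraries) in late gastrula-early neurula, with a fitted log2 change of -3.49 and an SE of 0.424 (limma adjusted p = 4.03e-05). comp267560_c1 stood at 26.2, 15.4, 33.4 and 17.2 at stages 12 to 13.5 and at 2.56, 2.28 and 1.91 at stages 18 to 20. It averaged 2.25 ± 0.33 (SD, 3 libraries) in late neurula and 23.1 ± 8.38 (SD, 4 libraries) before, with a fitted log2 change of -2.98 and an SE of 0.268 (limma adjusted p = 4.69e-06). It stood at 1.32 to 1.56 in the early tailbud and 1.68 to 2.16 in the late tailbud.

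The 4 members called higher in late neurula are 3.33% of the set, against the 41.1% of all tested components given above. The rest of the members not called lower were called in neither direction. comp265664_c2 had an early mean of 86.5 and stood at 68.4, 55.4, 73.9 and 62.7 at stages 12 to 13.5. At stage 16 it reached 131, followed by 176, 254 and 190 at stages 18 to 20, 185, 233, 125 and 78.8 at stages 22 to 26, and 13.9 to 24.2 in the late tailbud. All late neurula values thus exceeded all earlier ones. The log2 change of late neurula over late gastrula-early neurula was 1.51 with an SE of 0.318 (limma adjusted p = 0.00172), and its scaled level at stage 19, where it was highest, was 1.36 times the mean of stages 18 and 20. comp256958_c0, with an early mean of 10.1, stood between 3.11 and 7.88 at stages 12 to 13.5. It then stood at 18.6, 22.6 and 20.9 in late neurula, reached 30.1 and 34.0 at stages 23 and 24, and was 4.18 at stage 29 and 0.99 at stage 36. Its log2 change in this comparison was 1.76 with an SE of 0.321 (limma adjusted p = 0.000663). In both, late neurula levels exceeded those of every egg to mid gastrula library as well.

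Grouped by their level in late neurula, which the rule did not read, 47 members (39.2%) stood below 0.25 of the early mean, 37 (30.8%) between 0.25 and 0.5, 27 (22.5%) between 0.5 and the early mean, and 9 (7.5%) at or above it. The lowest group had a median of 0.837 at stages 12 to 13.5 and 0.597 at mid neurula, and all 47 were called lower in late neurula. In the next group 31 of 37 were called, and in the third 5 of 27. Members of the third group stood at a median of 0.872 at mid neurula, 0.671 in late neurula and 0.367 in the early tailbud, the course closest to the working name. The 9 members at or above the early mean ran from 1.04 to 2.39 times it in late neurula and had a median of 0.958 in the early tailbud. These groups were drawn after the values were seen and carry no test. The calls use the same late neurula libraries that drew the groups, so the number called in each group largely follows from the grouping.

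**Figure D3:**
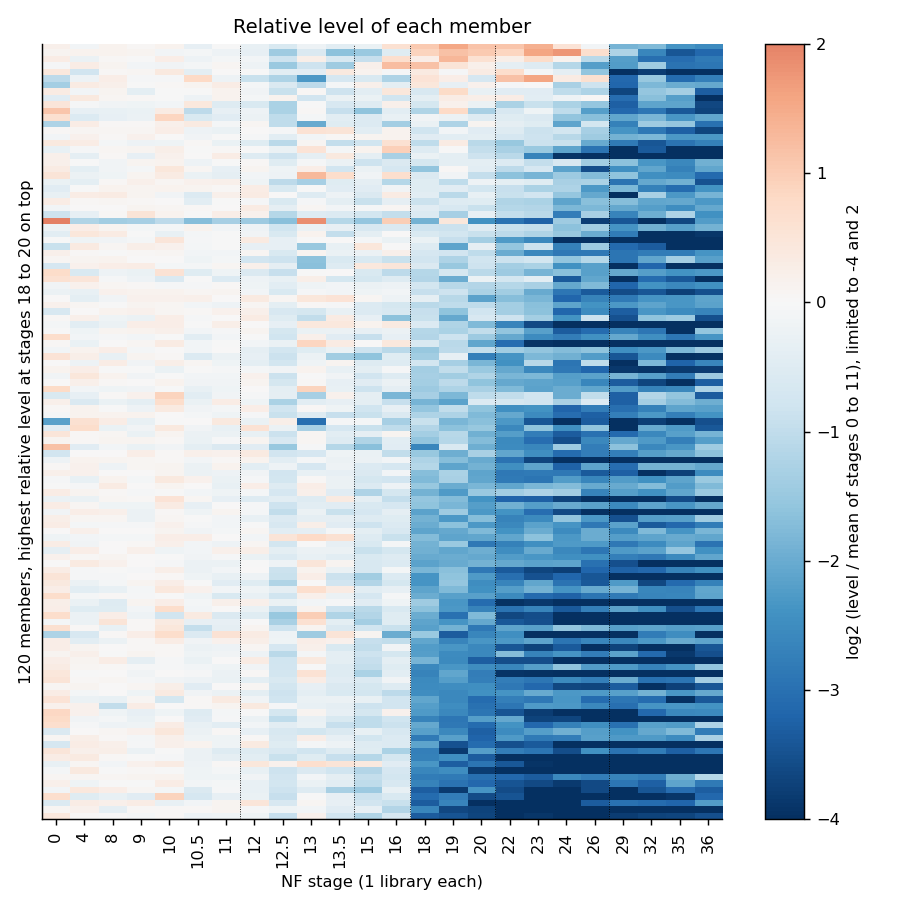
Level of each of the 120 members (rows) at each NF stage (columns), as log2 of the level over its mean at stages 0 to 11, limited to -4 and 2, with 1/64 added to the ratio. Rows run by the level at stages 18 to 20, highest on top, and the step at stage 18 spans the lower part of the map, while the 9 members at the top stood at or above their early mean there.

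As deposited, the members' highest library was usually an early one. It lay at stages 0 to 11 in 82 of 120, at stages 12 to 13.5 in 25, at mid neurula in 6, in late neurula in 4 and in the early tailbud in 3. Libraries that stand apart held many of these peaks: 32 lay at stage 0, 13 of the 25 at stage 13, 5 of the 6 at stage 16 and 3 of the 4 at stage 19. Without those libraries the counts in the same windows were 89, 22, 2, 2 and 5.

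Early tailbud libraries were compared with late neurula libraries to ask whether the decline went on beyond late neurula. The members' median log2 change was -0.83, against -0.13 for the 4357 components with an early mean of at least 10 and 0.06 for all tested. The change was below 0 in 112 of 120 members. In the fit 32 members were lower and 0 were higher (limma, adjusted p threshold 0.05), and at an unadjusted p under 0.05 the counts were 76 and 0. No background share is given here for the 112 or for the unadjusted counts, so those are a description. At the adjusted threshold 0.508% of all tested components were lower and 1.94% higher, and of the 4357 the shares were 1.86% and 1.06%. Of the 570 below 0.5 at mid neurula as deposited, 12 were lower. Levels of 63 members were lower in all 4 early tailbud libraries than in all 3 late neurula ones, and 0 were higher. Of all tested components 5.59% were lower in this way and 9.09% were higher. The rule held members high at mid neurula and low in the late tailbud, so a fall somewhere between was fixed. The gap to components not chosen by the rule is thus partly built in. The counts bear on how much of the fall lay in this step. The calls rest on few libraries: 0 members were called without the library of stage 18, 1 without stage 19, and 0 without the libraries that stand apart, although the median change then stayed at -0.73, -0.88 and -0.83. Of the 32 members, 25 were also among the 83 lower in the step before, and 7 were called lower here alone, of which 1 had been called higher in late neurula.

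The 2 members with the largest falls here were both already lower in late neurula than before it and fell further in the early tailbud. comp254146_c1 stood at 135 to 172 at stages 0 to 11 and at 131 and 143 at stages 15 and 16. Values of 64.1, 45.3 and 36.5 followed at stages 18, 19 and 20, then 17.9, 9.75, 4.07 and 1.96 at stages 22 to 26, and 1.17, 0.70, 0.51 and 0.24 at stages 29 to 36. Each library from stage 18 on was lower than the one before it, and the windows do not overlap. It averaged 8.41 ± 7.11 (SD, 4 libraries) in the early tailbud and 48.6 ± 14.1 (SD, 3 libraries) in late neurula, with a fitted log2 change of -2.89 and an SE of 0.488 (limma adjusted p = 0.0164). comp268826_c0 stood at 36.0 to 53.8 at stages 0 to 11 and was highest, at 78.1, in the library of stage 13. It stood at 27.7, 20.0 and 9.72 at stages 18 to 20 and at 4.59, 2.18, 0.73 and 1.25 at stages 22 to 26. The mean was 2.19 ± 1.71 (SD, 4 libraries) in the early tailbud and 19.1 ± 9.01 (SD, 3 libraries) in late neurula, with a fitted log2 change of -2.86 and an SE of 0.449 (limma adjusted p = 0.0138). Both calls are lost without the library of stage 18 (limma adjusted p = 0.100 and 0.0835) or of stage 19 (0.0554 and 0.0542), and without the libraries that stand apart (0.138 and 0.120). Their log2 changes under these 3 settings were -2.59, -2.92 and -2.78 for comp254146_c1 and -2.47, -2.78 and -2.56 for comp268826_c0, close to those with all libraries. Over all alternatives run, adjusted p ranged from 8.98e-05 to 1 for comp254146_c1 and from 4.61e-05 to 1 for comp268826_c0.

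**Figure D4:**
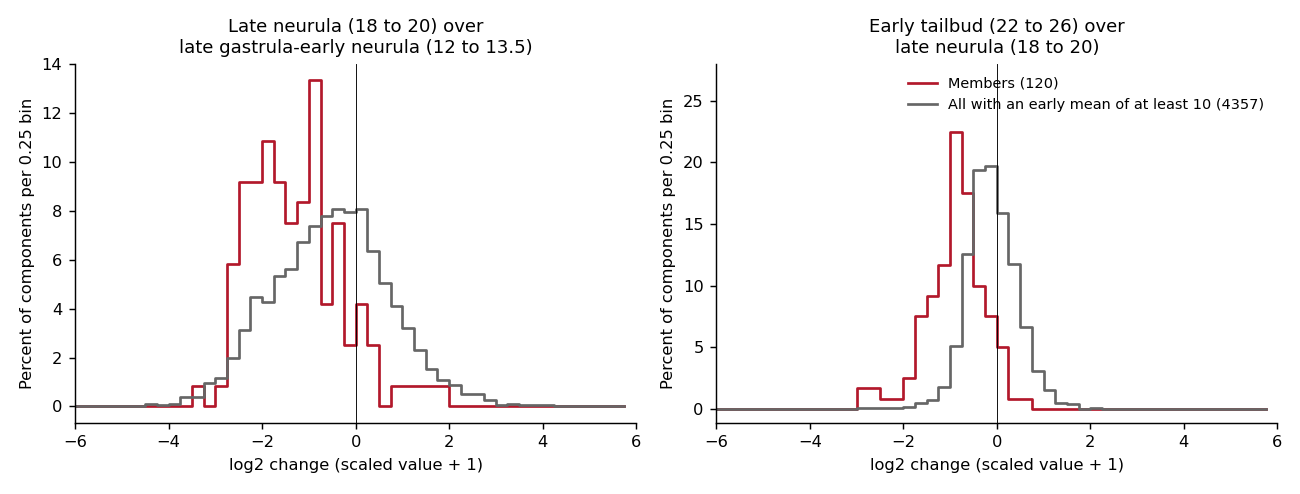
Distribution of log2 changes (scaled value + 1) of the 120 members and of all 4357 components with an early mean of at least 10, in bins of 0.25, for late neurula over late gastrula-early neurula (left) and early tailbud over late neurula (right). The member medians are -1.40 and -0.83, and those of the 4357 are -0.49 and -0.13.

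Across both steps together, early tailbud against late gastrula-early neurula, 106 of 120 members were lower and 3 were higher, where 11.5% of all tested components were lower and 52.5% higher. All early tailbud values lay below all late gastrula-early neurula values in 101 members and above them in 2, against 9.45% and 44.5% of all tested components. The median log2 change of the members was -2.31. This comparison shares its libraries with the other 2 and adds the total of the change, not a further count of evidence. The rule fixed a fall between mid neurula and the late tailbud. The first window of this comparison lies before that interval and the early tailbud lies inside it. A lower early tailbud level was therefore favoured by the choice of members. The contrast with all tested components is a description and not a test of the set. In the 570 components below 0.5 at mid neurula as deposited, the median was -2.21 and 547 were lower. Through stages 22 to 26 the 2 sets drew closer, with medians of 0.155 for the members and 0.128 for the 570 at stage 26, and in the late tailbud both had the low level that the rule required.

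The most abundant member was still well above 0 in the late tailbud. comp240903_c1 had an early mean of 356 and stood at 307 to 424 at stages 0 to 11. Its values were 302, 199, 294 and 280 at stages 12 to 13.5, 221 and 231 at mid neurula and 195, 188 and 242 in late neurula. At stages 22 to 26 it stood at 186, 178, 110 and 131, and at stages 29 to 36 between 63.5 and 89.6. The early tailbud mean was 151 ± 36.9 (SD, 4 libraries) and the late neurula mean 209 ± 29.2 (SD, 3 libraries), and the log2 change of -0.69 (SE 0.210) did not pass the threshold (limma adjusted p = 0.0967). Early tailbud against late gastrula-early neurula gave -1.18 with an SE of 0.195 (limma adjusted p = 0.000235).

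Values of comp272664_c3, the next in abundance, were low in the libraries that stand apart. It stood at 132 at stage 0 and 396 at stage 4, at 75.6 at stage 13 with 157 and 230 at stages 12.5 and 13.5, and at 133 at stage 19 with 265 and 344 at stages 18 and 20. At stage 24 it was 70.9, with 228 and 190 at stages 23 and 26. After scaling, stages 13, 19 and 24 stood at 0.376, 0.433 and 0.404 times their neighbours in the larger set. None of the tested windows differed beyond the threshold for it, with limma adjusted p = 0.489 for early tailbud against late neurula and 0.667 for late neurula against late gastrula-early neurula. Without the libraries that stand apart its early mean was 358 and its late tailbud mean 111, a ratio of 0.311, so it would not be a member. comp267560_c1 and comp256958_c0 would not be either, since their mid neurula levels without those libraries were 0.443 and 0.345 of the early mean. The other 5 named members met the rule without them.

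Few members deviated in this way, and about as large a share of the background did. At all 3 of stages 13, 19 and 24 the scaled level was below the neighbours' mean divided by 1.5 in 7 members (5.83%) and above 1.5 times it in 4 (3.33%), against 4.89% and 5.62% of all 4357 components with an early mean of at least 10. At stage 16 the members' deposited level was a median of 1.5 times the mean of stages 15 and 18, against 1.06 in the 4357. The stage of the drop and the rule's use of stage 16 both enter that ratio, so it is no test of the library.

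**Figure D5:**
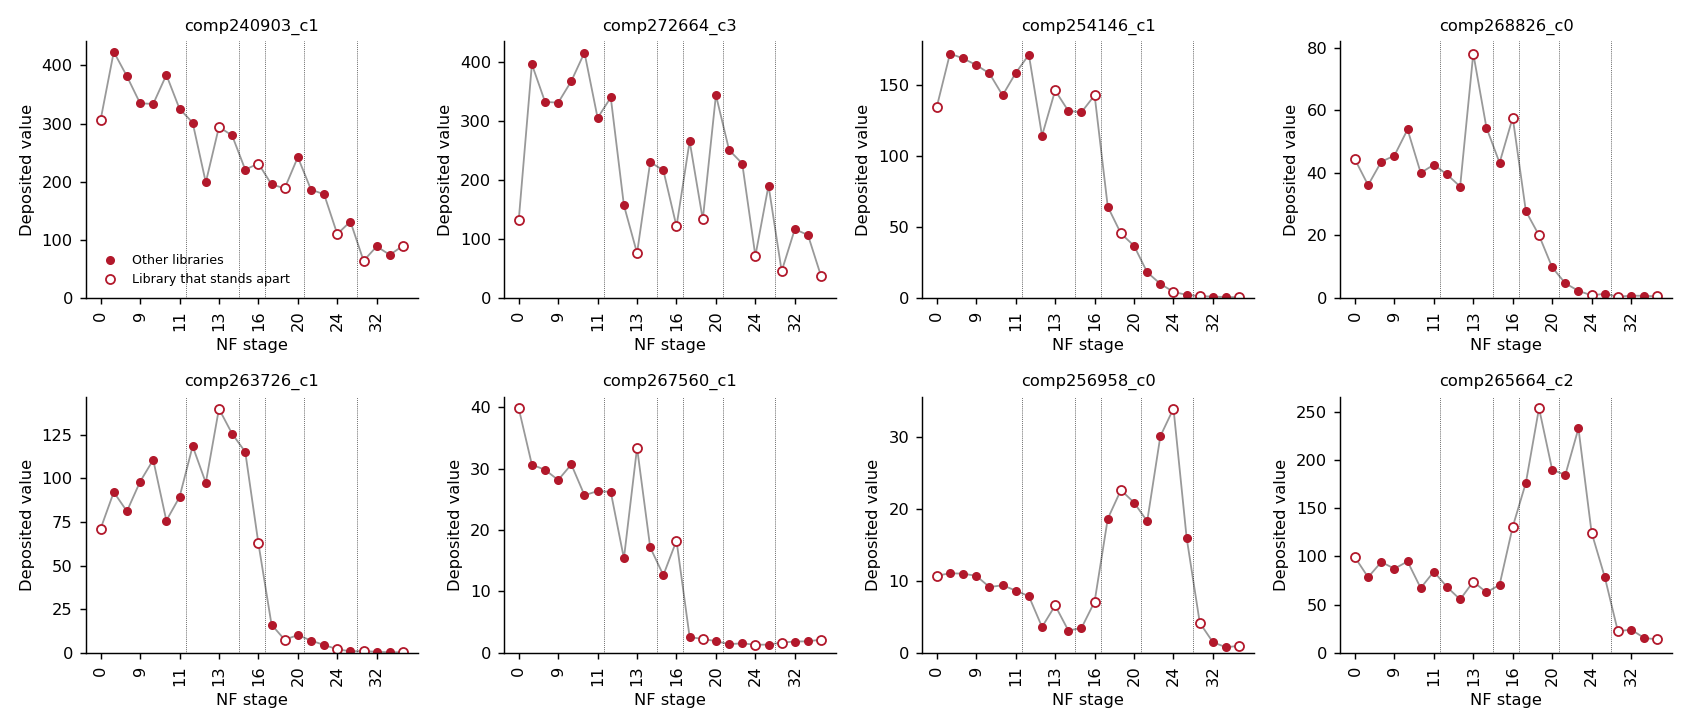
Deposited value of the 8 members named in the text at each of 24 NF stages, with the libraries that stand apart as open circles. Windows are separated by dotted lines and every axis starts at 0. comp254146_c1, comp268826_c0, comp263726_c1 and comp267560_c1 drop after stage 16, comp256958_c0 and comp265664_c2 peak in late neurula or the early tailbud, and comp272664_c3 is low in the open circles.

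In the late tailbud some members were near the limit of the table. The libraries of stages 29, 32, 35 and 36 listed 10, 2, 5 and 11 members at 0, and 21 to 29 stood below a value of 1. None was at 0 through stage 24. At stages 23, 24 and 26, 7, 22 and 17 members stood below 1, and at stage 18 none did. The median member value was 3.35 at stage 36 and 31.96 at stage 0. Stages 0, 24, 29 and 36 are among the libraries that stand apart. In the larger set the median was 3.01 at stage 35 and 30.49 at stage 4.

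Components that share the first part of their identifier may share reads that the assembly or the quantification split among them. Another component of that kind existed for 80 members, 226 components in all, and 4 members shared an identifier with another member. Of the 226, 22 had an early mean of at least 10, and 4 of these (18.2%) stood at 0.25 or less in the late tailbud, against 15.8% of all components with that early level. None of these 4 met the mid neurula condition, since it would then be a member. Beside comp265664_c2, which stood at 2.39 times its early mean in late neurula, comp265664_c0 and comp265664_c1 stood at 0.195 and 0.120. Beside comp272664_c3, comp272664_c1 had an early mean of 77.9 and stood at 1.22 times it in late neurula and 0.462 in the late tailbud. Courses differed in further pairs too. In late neurula comp271810_c2 stood at 7.27 times its early mean, beside 1.16 in comp271810_c3, the member sharing its identifier. In the late tailbud these levels were 14.9 and 0.017. Some pairs were closer to each other. The late neurula level of comp264086_c2 was 0.979 times its early mean, beside 1.04 in the member sharing its identifier. A pair of members with a common identifier stood at 0.129 and 0.123 there. Components with a common identifier thus followed different courses in some cases and similar ones in others. Whether they are transcripts of one gene, copies of it in a hybrid genome or split fragments was not tested.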

How the data were processed

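Each value is a signal, the abundance of 1 assembled component in 1 library, in a unit the authors deposited without naming it. Per the submitters' processing notes, CASAVA 1.8.2, Trimmomatic, Bowtie and RSEM were used, with no role or order named, and ribosomal RNA was depleted per the labels' protocols. The values are not read counts (0.458% of those above 0 are whole numbers). The assembler, the unit and any scaling between libraries are not given in the sources used here, and depth as reads is unknown. Labels gave a stage for all 24 columns.

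The member rule was applied to deposited values. For tests, values were divided by median-of-ratios factors over the 15471 components above 0 in every library, and log2(scaled value + 1) was fitted with limma 3.58.1 (R 4.3.3, mean-variance trend, robust variances) on the 48818 components that reached 1 in 4 or more libraries. For low components the added 1 makes a fold change look smaller than it is. The fit held the 11 libraries that the rule did not read, with a mean for each of 3 windows, and p-values were adjusted by Benjamini-Hochberg over all tested components. On simulated data with 48818 components, 100 were changed by each amount, chosen among those of higher mean level. A log2 change of 2 was recovered in 72%, 70% and 73% and a change of 1 in 12%, 14% and 26%. These are for early tailbud against late neurula, late neurula against late gastrula-early neurula, and early tailbud against late gastrula-early neurula. Far more components were called in the real comparisons, which makes the adjusted threshold less strict there. The rates therefore do not give the power of the tests above. The 7 libraries that stand apart were split off at the widest gap of the first principal component of residuals about a 4-df spline over the order of stages.

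Named members are the 2 with the highest early mean and, in each of the first 2 comparisons, the 2 lowest and 2 highest changes past the threshold with windows that do not overlap. No member passed as higher in the early tailbud. Members, windows and lists were chosen with earlier results of these data known. Scalings, pseudocounts, filters, library sets and single libraries left out were tried as alternatives.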

Additional observations from a re-analysis of the deposited data

Results flagged for a closer look

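In 40 combinations of a window with a named member, or with the members' summed share or median level, 2 libraries lay far from the others of their window, where chance alone gives about 1 in 20. comp272664_c3 stood at 131.87 at stage 0 and at 304.90 to 415.84 in the other 6 libraries of stages 0 to 11, a gap of 0.609 of the range. comp267560_c1 stood at 39.81 at stage 0, above the other 6 libraries of the window, the lowest of which was 25.67, with a gap of 0.645 of the range. The library of stage 0 is among those that stand apart, and its part in these values was not tested. For each of these members the early mean was read by the rule with that library included.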

How the results depend on the processing

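Late neurula against late gastrula-early neurula gave 83 members lower and held within 1.5 times in 11 of 12 alternatives, with 35 under a minimum fold of 2. Without the libraries that stand apart the count was 74. The total change, early tailbud against late gastrula-early neurula, gave 106 and held in all 12, with 104 without the libraries that stand apart. Early tailbud against late neurula gave 32. The count there was 21 with values as deposited, 23 with column totals, 16 with the trimmed mean, 23 at a pseudocount of 0.25, 20 at a pseudocount of 4, 34 with at least 5 in at least 4 libraries, 55 with all 24 libraries and 43 with a term for the libraries that stand apart. It was 0 without a filter, with only the 2 windows compared, without the libraries that stand apart and with a minimum fold of 2, where the counts at an unadjusted p under 0.05 were 70, 76, 69 and 12. No background share is set beside these unadjusted counts, so they do not show more than the background. These settings changed the components tested, the libraries fitted or the fold tested against, and the cause of the 0 counts was not tested. Leaving out each library gave 0 to 45, 71 to 86 and 104 to 107 members lower for early tailbud against late neurula, late neurula against late gastrula-early neurula and the total. In the first of these the count was 0 without stage 18, 1 without stage 19, 14 without stage 12.5, 18 without stage 13.5, 15 without stage 23 or 24, 11 without stage 26 and 45 without stage 22, and the members' median change stayed between -0.96 and -0.73.

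The number of members was 297 with median-of-ratios scaling and 275 with column totals, of which 110 and 118 are among the 120. It was 131 without the libraries that stand apart (93 shared), 41 with 0.75 required at stages 15 and 16, 47 with an eighth at stages 29 to 36, 206 with 0.333 there, 178 from an early mean of 5, and 116 to 137 with a library left out. Among the same 120 members, those lost before the tailbud numbered 83, and 77 to 94 under other scalings or library sets, or 37 when loss means below 0.25. The 6 members named for a change kept direction in all 138 alternative fits and the threshold in 124. The exceptions were 12 for comp254146_c1 and comp268826_c0, and 2 under a minimum fold of 2. No paired analysis was possible because the libraries carry no shared replicate number. Unknown depth limits statements on values near 1.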
